A study of Mus musculus with 8 samples.

Results

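The 8 genes Nfia, Nfib, Nfix, Zbtb20, Nr2e1, Rest, Klf4 and Dach1 encode transcription factors of gliogenesis and of stem cells. They were taken by name from 24346 mouse genes with curated RefSeq transcripts, with earlier results of these data known. Their ranks among all genes below are therefore descriptions, not tests. For each gene, every deposited interval of H3K27ac, H3K4me3 and H3K27me3 was counted that overlapped the mm10 gene span with 1 kb added on each side, by at least 1 bp. All libraries came from mouse neuronal stem cells labelled p16Ink4a - /p14Arf -, so both groups share the loss of these cell cycle inhibitors. Both were also grown with the growth factors EGF and bFGF. One group carried stably transduced wild-type H3.3 (WTH3.3) and the other stably transduced H3.3K27M, a histone H3.3 in which lysine 27 is replaced by methionine; the sources used here do not give the vector, its promoter or the number of clones. Each genotype had 1 library for each of the 3 marks and 1 input, 8 samples in all, and the 6 libraries of the marks were used. With 1 library per group no difference below has a replicate check or a p-value, and fewer cells with a mark and less of the mark per cell cannot be told apart.

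H3K27ac marks active promoters and enhancers, H3K4me3 marks promoters, and H3K27me3 is laid down by Polycomb repressive complex 2 at silent developmental genes. H3.3K27M is the recurrent histone mutation of diffuse midline glioma and is known to inhibit that complex. Nuclear factor I proteins (Nfia, Nfib and Nfix) switch neural progenitors towards making astrocytes, the zinc-finger repressor Zbtb20 acts in hippocampal and astrocyte development, and the orphan nuclear receptor Nr2e1 (also called Tlx) keeps neural stem cells self-renewing. Rest silences neuronal genes outside neurons, Klf4 is a pluripotency factor, and Dach1 is a nuclear cofactor related to Drosophila dachshund.

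Promoters of 4 of the genes are printed so that the marks described below can be read against the letters under them: Nfia for the most H3K27ac, Nr2e1 and Klf4 for H3K27ac over or beside the start in both lists, and Dach1 for the widened H3K27me3. Each runs 5′ to 3′ from 250 bases before to 50 bases after a RefSeq transcript start in GRCm38.p6 (the mm10 assembly), with every CG dinucleotide in capitals; 6 of the 8 genes had an entry. They lie at chr4:97581693-97581992 on the plus strand (Nfia), and on the minus strand at chr10:42583541-42583840 (Nr2e1), chr4:55532426-55532725 (Klf4) and chr14:98169716-98170015 (Dach1).
Nfia: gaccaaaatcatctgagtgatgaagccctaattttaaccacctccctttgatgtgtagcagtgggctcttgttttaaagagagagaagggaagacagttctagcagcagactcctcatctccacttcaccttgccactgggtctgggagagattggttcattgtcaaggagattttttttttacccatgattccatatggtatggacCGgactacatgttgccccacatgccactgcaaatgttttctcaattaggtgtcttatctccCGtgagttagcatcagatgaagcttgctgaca
Nr2e1: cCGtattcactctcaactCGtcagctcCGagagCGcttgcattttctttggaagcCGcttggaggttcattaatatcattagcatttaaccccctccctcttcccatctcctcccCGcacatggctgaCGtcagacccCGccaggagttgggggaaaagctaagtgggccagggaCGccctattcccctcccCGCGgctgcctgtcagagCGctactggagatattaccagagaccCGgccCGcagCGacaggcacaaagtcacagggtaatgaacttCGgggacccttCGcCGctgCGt
Klf4: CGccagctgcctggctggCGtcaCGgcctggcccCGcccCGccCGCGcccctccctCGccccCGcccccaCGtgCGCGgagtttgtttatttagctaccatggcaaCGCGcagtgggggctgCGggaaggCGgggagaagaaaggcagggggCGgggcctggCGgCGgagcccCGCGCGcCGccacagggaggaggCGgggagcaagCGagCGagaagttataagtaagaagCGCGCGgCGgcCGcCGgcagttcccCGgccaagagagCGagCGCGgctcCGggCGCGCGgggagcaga
Dach1: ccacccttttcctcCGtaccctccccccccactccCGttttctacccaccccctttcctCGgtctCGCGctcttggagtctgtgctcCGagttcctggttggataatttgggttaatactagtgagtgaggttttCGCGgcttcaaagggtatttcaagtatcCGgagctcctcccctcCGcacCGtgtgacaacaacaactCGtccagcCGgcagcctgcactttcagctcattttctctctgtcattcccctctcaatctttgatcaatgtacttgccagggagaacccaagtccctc
The Nfia promoter held 2 CG dinucleotides, Dach1 13, Nr2e1 19 and Klf4 40, against a median of 7 over 32851 mouse promoters. As many CG dinucleotides or more were found in 85.9%, 37.9%, 28.1% and 3.91% of all promoters, in that order. Of 4 motifs searched on both strands, the GC box GGGCGG was in the Klf4 sequence (35.7% of all promoters) and CCAAT was in the Nfia sequence (37.4%). The nuclear factor I half-site TTGGCA (14.1% of all promoters) and TATAAA (13.6%) were not among these letters in any of the 4. CCAAT read on the other strand shares TTGG with TTGGCA, and a match describes the letters, not binding.

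The marks over these 300 bases differed from gene to gene. At Nfia, H3K27ac covered 299 bases in the wild-type list and 196 in the K27M list, and H3K4me3 covered 299 in both. At Nr2e1, H3K27ac covered 262 bases in the wild-type list and 0 in the K27M list, where the sequence lay between both intervals of the gene, while H3K4me3 covered 299 in both. No interval of any mark lay over the Klf4 sequence in either list; it falls in the gap between the gene's H3K4me3 intervals. The Dach1 sequence lay under H3K27me3 over 299 bases in both lists and under H3K4me3 over 255 and 299.

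The deposited lists differed in size and in the lowest density they reach, and every comparison below inherits that. H3K27ac had 39018 intervals over 31.7 Mb in the wild-type list and 20040 over 12.6 Mb in the K27M list, and the 5th percentile of mean density was 17.0 and 25.5. H3K4me3 had 23368 and 22820 intervals, with 5th percentiles of 16.8 and 18.9. H3K27me3 had 20705 intervals over 244 Mb and 5877 over 44.4 Mb, with 5th percentiles of 3.54 and 2.02. Density is the number of tags in a bin of about 32 nt, and the total reads per library are not known. Both H3K4me3 and H3K27ac were found at 7 of 8 neural stem cell markers in each list (all but Prom1), and at 0 of 4 astrocyte, 0 of 4 oligodendrocyte and 0 of 4 microglial markers in either. The same held for 3 of 6 neuronal markers in the wild-type list and 2 in the K27M list, for 1 and 0 of 4 fibroblast markers, and for 1 and 1 of 4 endothelial markers.

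All of the genes but Dach1 had both H3K4me3 and H3K27ac somewhere in the window in both genotypes. H3K4me3 and H3K27ac occurred together in the windows of 7 of 8 genes in the wild-type list, as they did at 48.6% of all genes, and at the same 7 in the K27M list, against 42.5%. All 8 had H3K4me3 in the wild-type list (55.7% of all genes) and in the K27M list (56.2%). H3K27ac was present at 7 in each list (51.5% and 43.7% of all genes), with Dach1 the exception. No H3K27me3 interval lay in the windows of these 7 genes in either list; 68.1% of all genes had none. Dach1 was the 1 gene with H3K27me3, in the wild-type list (31.4% of all genes) and in the K27M list (10.1%).

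H3K27ac at the 8 genes covered 124 kb in the wild-type list and 43.4 kb in the K27M list, or 34.9%. The covered length was at least 2-fold shorter in the K27M list at 4 of the 7 genes with H3K27ac, namely Nfia, Nfib, Nfix and Zbtb20, against 50.7% of 12546 genes. Among genes with at least 5 wild-type intervals the count was 4 of 4 against 81.6%, and among genes of at least 100 kb it was 3 of 3 against 67.3%, so the shortening at these genes is what most genes with many intervals showed. No gene was at least 2-fold longer (0.422% of all). The median covered length over the 7 genes was 35.5% of wild type, and over all genes it was 49.4%.

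The number of H3K27ac intervals was 140 in the wild-type list and 69 in the K27M list, or 49.3%. It was lower at 4 of 7 genes, the same 4, against 55.2% of all genes. The direction was not kept when intervals under a mean density of 25.5 were left out of both lists: the K27M number was then 105% of the wild-type number, while the covered length was still 45.8%. At that common floor Nfia had 24 and 32 intervals and Zbtb20 12 and 13, whereas Nfib had 9 and 7 and Nfix 10 and 5. Covered length is therefore given first for each gene.

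**Figure D1:**
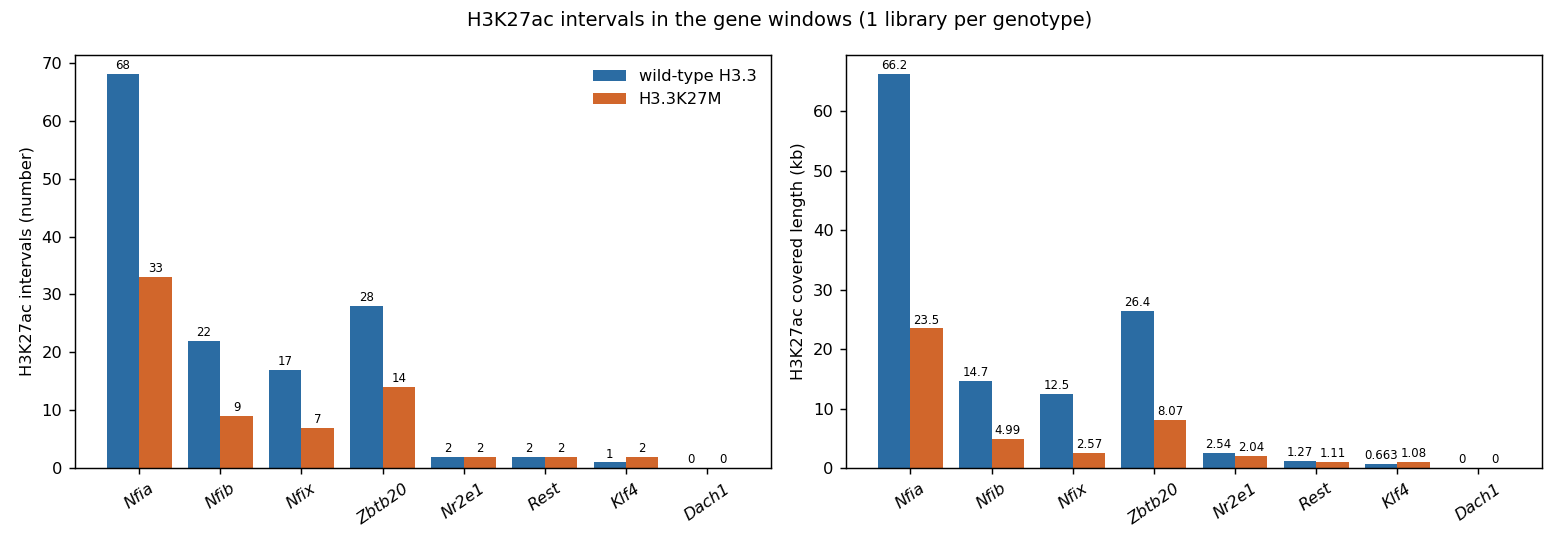
Number of H3K27ac intervals (left) and covered length in kb (right) in the window of each of the 8 genes, with 1 bar per library. The 4 genes on the left went from 12.5 to 66.2 kb in the wild-type library to 2.57 to 23.5 kb in the K27M library, while Nr2e1, Rest and Klf4 held between 0.663 and 2.54 kb in both and Dach1 held 0.

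Nfia had more wild-type H3K27ac intervals than any other of the 24346 genes. Its 541 kb span (chr4:97578066-98118876) held 68 intervals over 66.2 kb in the wild-type library and 33 intervals over 23.5 kb in the K27M library. The K27M length was 35.5% of the wild-type length, and the difference of -42.7 kb ranked 3 from the largest loss among all genes. Ranks of loss here and below are by kb, and a gene cannot lose more than it had. A long wild-type coverage therefore favours a high rank. With the common density floor 48.7% remained.

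Nfia had H3K27ac in both lists in regions that start between 2.81 and 82.5 kb from the lower end of the gene, between 173 and 200 kb, and at 290 kb. A K27M interval overlapped 18 of its 68 wild-type intervals (26.5%, exact binomial 95% interval 16.5 to 38.6, counting error only), and 31 of 33 in the K27M list met a wild-type one. All 6 intervals that the deposited table places on a CpG island were overlapped. The densest interval of the gene, 6932 bp at chr4:97645803-97652735 with a mean density of 61.8, was matched in the K27M list by 5 shorter intervals over 3905 bp with a mean of 45.6. The highest density of the gene, 161 in the wild-type library, lay in the interval chr4:97750812-97755765 and was 113 in the K27M library. The densest interval with no K27M counterpart was short, 324 bp at chr4:97619500-97619824 with a mean of 37.0. Of the 18 wild-type intervals of at least 1 kb, 5 also had none. The longest of them was 3065 bp at chr4:97689155-97692220, with a mean of 34.9. Past chr4:97868929 the K27M list held no H3K27ac in the gene. Over the 16 regions with intervals in both lists the mean density was lower in 10 and the highest density lower in 13 on the deposited scale.

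The Nfia window also holds the gene E130114P18Rik, so some intervals may belong to it. H3K4me3 at Nfia had 18 and 13 intervals over 24.2 and 19.7 kb, and its loss of length ranked 10 among all genes. Its H3K4me3 density on the deposited scale had a mean of 53.9 and 67.6, which is lower in the K27M library with equal sums, and a highest value of 171 and 263, the latter at chr4:97777639-97781440. The interval over the printed promoter had a mean H3K4me3 density of 76.3 and 88.8, and its H3K27ac was 53.5 and 52.9.

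Nfib kept its H3K27ac at the upper end of its span and little elsewhere. In the 217 kb of chr4:82290173-82506751 the 22 wild-type intervals covered 14.7 kb and the 9 K27M intervals covered 4.99 kb, or 33.9%. All 4 intervals placed at a promoter were overlapped, and 2 of the 18 others were. The densest, chr4:82503404-82505403, had mean densities of 57.4 and 56.5 and highest densities of 105 and 101. The densest wild-type interval lost from any of the 8 genes was also here, at the other end of the gene: chr4:82304071-82305079, 1008 bp, with a mean of 42.5. H3K4me3 covered 8.85 and 7.57 kb of the window, with mean densities of 79.9 and 80.5. The upper window edge cuts an H3K4me3 interval that was 2775 bp long in the wild-type list and 6395 bp in the K27M list. The lower K27M value therefore holds inside the window only.

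Nfix had the largest relative loss of covered H3K27ac of the 8 genes. Its 96.5 kb span (chr8:84704712-84801238) held 17 intervals over 12.5 kb in the wild-type library and 7 over 2.57 kb in the K27M library, or 20.6%, and 22.3% with the common floor. Per 100 kb of window it had 17.3 and 7.10 intervals, Nfia 12.5 and 6.08, Nfib 10.1 and 4.12, and Zbtb20 3.68 and 1.84. K27M intervals overlapped 4 of the 17, all of them at least 1 kb long, and 0 of the 12 shorter ones. The densest interval kept was chr8:84729934-84732055 (mean 39.0, and 30.2 over its 2 K27M intervals), and the densest lost was chr8:84743299-84743817 (34.4). The single interval that the deposited table places at a promoter, 199 bp with a mean of 25.4, was not overlapped. By RefSeq starts the wild-type interval chr8:84774967-84776358 (mean 36.9) also covered 299 bases of an Nfix promoter, where the K27M list covered 0. H3K4me3 went the other way, from 5 intervals over 3.49 kb to 7 over 4.29 kb, with highest densities of 130 and 248 on the deposited scale. Lyl1 and G430095P16Rik lie in the same window.

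Zbtb20, the longest of the genes at 759 kb (chr16:42875689-43634392), kept H3K27ac at its lower end and in 3 internal places. It had 28 intervals over 26.4 kb in the wild-type library and 14 over 8.07 kb in the K27M library, or 30.6%, and 40.0% with the common floor. All 14 of them overlapped wild-type intervals. The longest wild-type interval, 6833 bp at chr16:43502531-43509364, was matched by 5 K27M intervals over 4195 bp at nearly the same mean density, 37.0 and 36.2. The interval at chr16:43572273-43575992 kept 1599 of 3719 bp, and its highest density was 119 and 63.0. The densest lost interval was chr16:43462324-43463426 (34.6). The difference of -18.3 kb ranked 33 from the largest loss among all genes, beside 184 for Nfix and 194 for Nfib. H3K4me3 at Zbtb20 covered 14.2 and 11.2 kb. The genes 4932412D23Rik, Gm19522, Gm9968, Gm15713 and Tigit share the window.

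**Figure D2:**
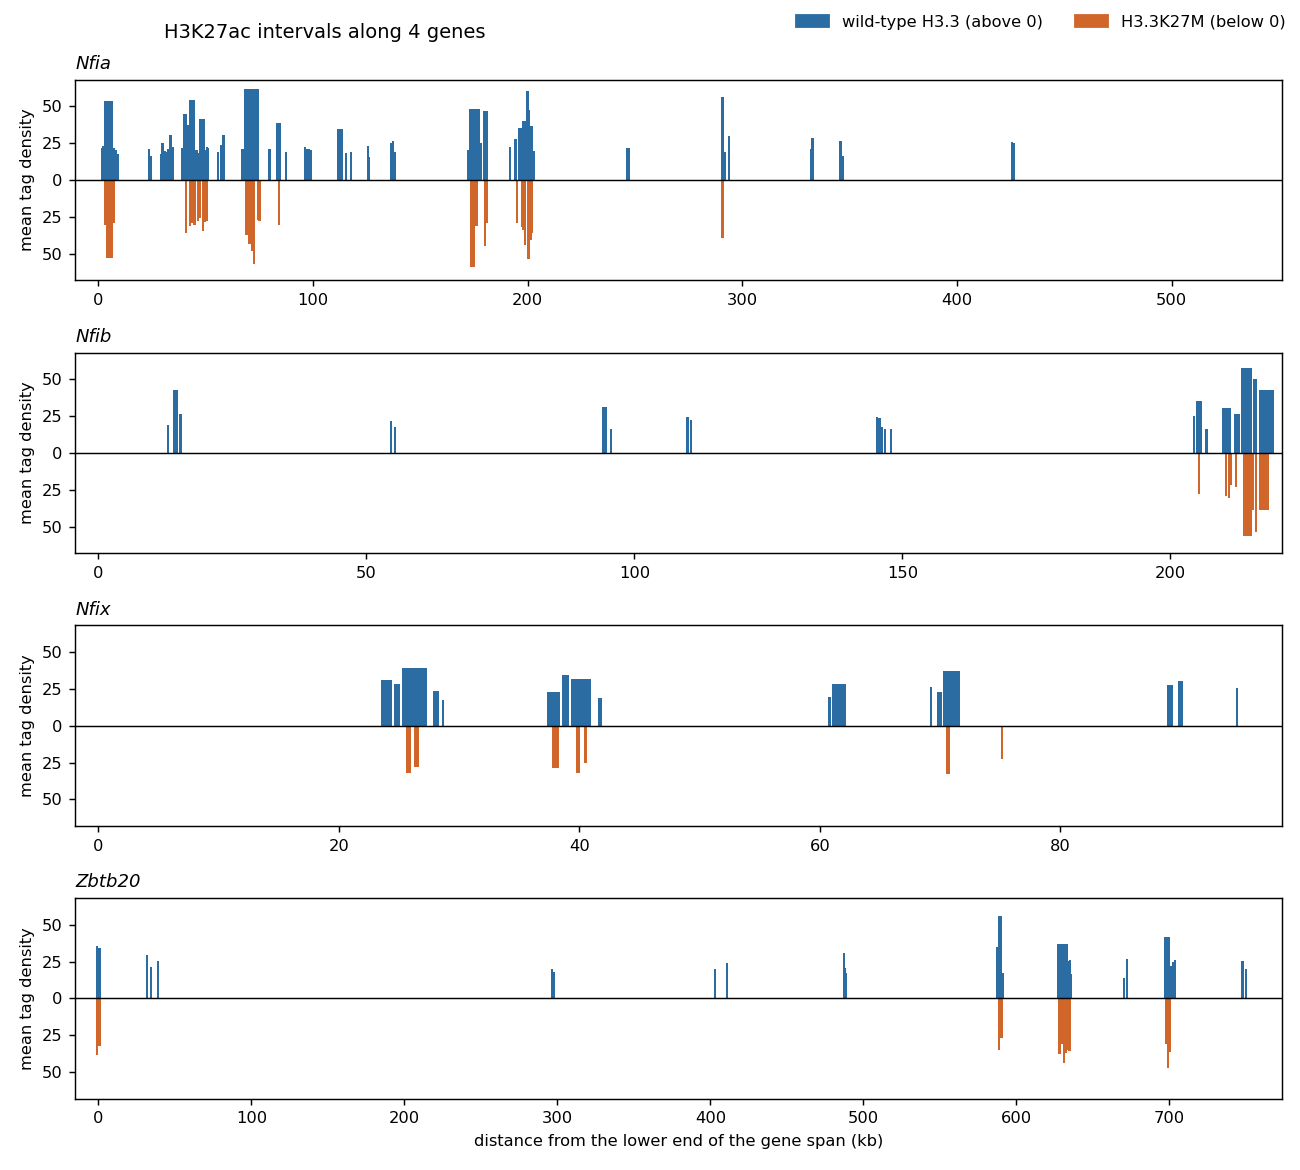
H3K27ac intervals along Nfia, Nfib, Nfix and Zbtb20, by distance in kb from the lower end of the gene span; bar height is the mean tag density of an interval, wild-type H3.3 above 0 and H3.3K27M below, with the narrowest intervals drawn at a fixed minimum width. In all, 50 of 68 wild-type intervals at Nfia, 16 of 22 at Nfib, 13 of 17 at Nfix and 21 of 28 at Zbtb20 have no K27M interval beneath them, and 4 K27M intervals (2 at Nfia, 1 at Nfib and 1 at Nfix) have no wild-type interval above them.

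Wild-type intervals that a K27M interval overlapped were mostly longer and denser than the others, with exceptions on both sides; a rule of 1 bp also favours long intervals. Over the 8 genes a K27M interval overlapped 40 of 140 (28.6%, exact binomial 95% interval 21.3 to 36.8), against 39.7% of all 39018; neighbouring intervals are not independent. The overlapped share was 28 of 39 intervals of at least 1 kb (71.8%) and 12 of 101 shorter ones (11.9%), beside 78.0% and 26.7% over all genes and intergenic regions. The median length was 1626 bp for overlapped and 382 bp for other intervals, and the median mean density was 38.7 and 21.8. By annotation, 13 of 24 intervals at a promoter were overlapped (54.2%, and 60.3% of all), 27 of 116 away from promoters (23.3%, and 21.6% of all), and 16 of 18 on a CpG island (88.9%, and 79.6% of all). The median density of the intervals that were not overlapped, 21.8, is under the 5th percentile of the K27M list, 25.5, and the part of this in the result was not tested. With the common floor 56.7% were overlapped. The share of all wild-type intervals with that floor was not computed, so 56.7% cannot be set against 39.7%.

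**Figure D3:**
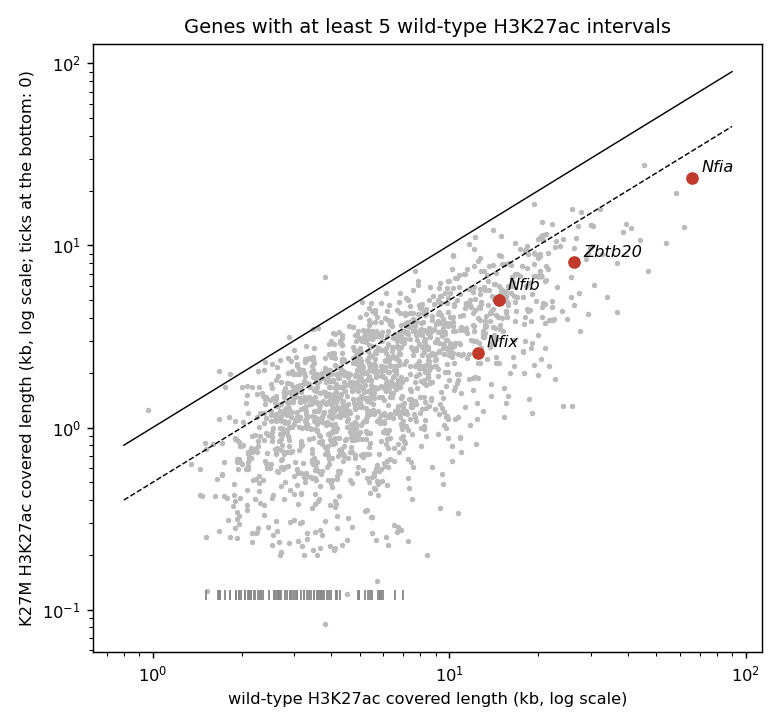
Covered H3K27ac length in kb in the K27M library against the wild-type library for the 1761 genes with at least 5 wild-type intervals, both axes on a log scale; red points are the 4 named genes, ticks at the bottom are genes with 0 kb in the K27M library, the solid line is equal length and the dashed line is a 2-fold shorter length. Nfia, Nfib, Nfix and Zbtb20 lie below the dashed line, where 81.6% of the genes lie.

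Nr2e1, Rest and Klf4 are short genes with 1 or 2 H3K27ac intervals in the wild-type list, all at promoters and on CpG islands, and every one was overlapped in the K27M list. At Nr2e1 (chr10:42561963-42583590, 21.6 kb) the 2 intervals covered 2.54 and 2.04 kb, or 80.4%. Its interval over the gene start, chr10:42581969-42583803, had mean densities of 47.6 and 36.8, and the interval outside the start had 39.7 and 42.6. H3K4me3 at Nr2e1 covered 3.34 and 3.70 kb with mean densities of 98.5 and 127, the highest H3K4me3 means of the 8 genes in both lists. Gm38491 lies in the same window.

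At Rest (chr5:77265494-77286432, 20.9 kb) 2 intervals in each list covered 1.27 and 1.11 kb, or 87.6%. Its mean density differed most of the 7 genes on the deposited scale, 48.0 and 35.8, a log2 ratio of -0.41. Its highest density was 110 and 60, a log2 ratio of -0.86, beside -0.91 at Zbtb20. The H3K4me3 of the same promoter had a highest density of 243 and 295. At Nfib the length was 33.9% and the log2 ratio of mean density 0.27, with different intervals averaged in each list. In all 6 Nfib regions with intervals in both lists the mean density was lower in the K27M library. Their median log2 ratio was -0.10 on the deposited scale.

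Klf4 (chr4:55527137-55532475, 5.34 kb) was the 1 gene with more H3K27ac in the K27M list, 1.08 against 0.663 kb, or 164%. The interval upstream of its start, chr4:55532789-55533452, had mean densities of 28.2 and 39.3. A K27M interval inside the gene, chr4:55531757-55532171 with a mean of 28.9, had no wild-type counterpart. H3K4me3 at Klf4 covered 2.24 and 2.91 kb, with mean densities of 42.2 and 67.2.

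The direction of the density differences depends on how the lists are scaled and on which intervals are averaged. On the deposited scale the mean H3K27ac density was higher in the K27M library at 4 of 7 genes (67.9% of all genes with intervals in both lists) and the highest density was lower at 6 of 7 (77.0%). The median log2 ratio of mean density was 0.07 over the 7 genes and 0.13 over 10465 genes, and that of the highest density was -0.56 and -0.30. Over regions with intervals in both lists, the median log2 ratio of mean density was -0.05 at Zbtb20, -0.10 at Nfia and -0.10 at Nfib. It was -0.14 at Nfix, -0.13 at Nr2e1, -0.30 at Rest and 0.47 at Klf4. These medians were not computed over all genes. Scaling both lists to equal sums put all 7 genes higher in the K27M library, and scaling to equal 5th percentiles put all 7 lower, for the mean and for the highest density. These scalings moved the median of all genes to 1.23 and -0.44.

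H3K4me3 was denser at all 8 genes in the K27M library on the deposited scale, as at most genes, but at 2 of 8 with equal sums. The mean density was higher at 8 of 8 (96.5% of 13308 genes) and so was the highest density (96.9%); with equal sums the highest density was higher at 6 of 8, and with equal 5th percentiles the mean at 6 of 8 and the highest at 8 of 8. The median log2 ratio of mean density was 0.34 over the 8 genes and 0.36 over all genes on the deposited scale, and -0.06 and -0.05 with equal sums. Covered length was close in both lists, 60.7 and 55.5 kb in all, or 91.4%. No gene was at least 2-fold shorter (2.79% of all), and Dach1 was the 1 gene at least 2-fold longer (1.38%).

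**Figure D4:**
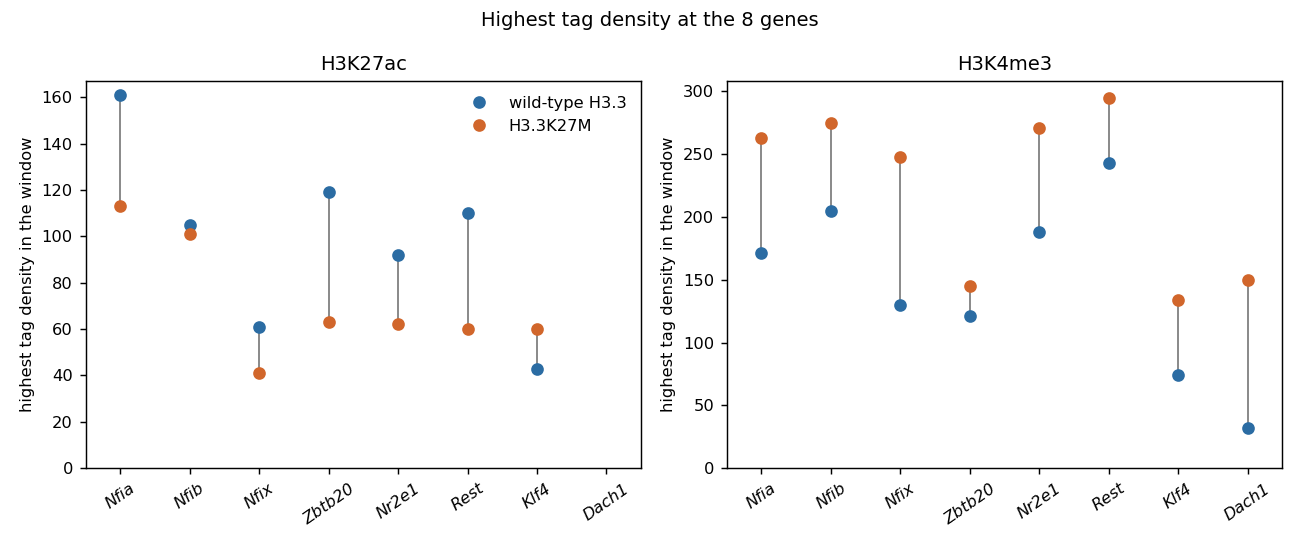
Highest tag density of H3K27ac (left) and H3K4me3 (right) in the window of each gene, on the deposited scale, with 1 point per library and a line joining the genotypes; Dach1 has no H3K27ac interval. H3K27ac is lower in the K27M library at 6 of 7 genes and H3K4me3 higher at 8 of 8, but with equal sums H3K27ac is higher at 7 of 7 and H3K4me3 at 6 of 8.

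H3K27me3 covered most of Dach1 in the K27M library and little of it in the wild-type library. In the window of chr14:97786846-98169765 the wild-type library had 7 H3K27me3 intervals over 33.3 kb, or 8.65% of the window, and the K27M library had 24 over 337 kb, or 87.7%. The covered length was 10.1-fold longer, where 1.11% of 7644 genes with wild-type H3K27me3, and 3.80% of those of at least 100 kb, were at least 2-fold longer. The gain of 304 kb was the largest of the 24346 genes, and 4 genes (0.0164%) gained at least 100 kb. The others were Foxp2, Pcdh9 and Robo2, with gains of 211, 166 and 104 kb; these 3 were named after their values were seen.

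All 7 wild-type H3K27me3 intervals at Dach1 lay under K27M intervals, and 20 of the 24 K27M intervals lay where the wild-type list had none. The wild-type interval over the promoter, chr14:98161000-98179999, was 18999 bp long with a mean density of 7.19. The K27M interval over it, chr14:98044600-98191799, was 147199 bp long with a mean density of 7.38, and the highest density was 50 and 51. Over the called intervals alone, which cover very different shares of the window, the mean density was 5.30 and 5.26 on the deposited scale, a log2 ratio of -0.01, beside a median of -1.12 over the 2345 genes with H3K27me3 in both lists; with equal sums or equal 5th percentiles the Dach1 mean was higher in the K27M library.

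Most of the K27M intervals at Dach1 were thin, and 7 of 24 had a mean density of at least 3.54. The mean densities of the 24 K27M intervals ran from 1.86 to 7.38 with a median of 2.66, under the wild-type list's 5th percentile of 3.54. With 3.54 as a floor for both lists the covered length was 27.3 kb in 6 intervals and 236 kb in 7 intervals, an 8.65-fold difference. The widest of the intervals away from the promoter, chr14:97882000-97917999, was 35999 bp long with a mean of 4.12.

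Outside Dach1 the lists differed in both directions. From 0 to 100 kb above the span H3K27me3 covered 14.8 and 35.6 kb, and it covered 0 in both lists over the next 300 kb and 0 and 19.4 kb from 400 to 500 kb. From 0 to 100 kb below the span it covered 3.65 and 4.45 kb, and from 100 to 200 kb below it 24.6 and 0 kb. Farther below, it covered 20.2 and 20.4 kb from 200 to 300 kb, 16.8 and 0 kb from 300 to 400 kb, and 0 and 15.2 kb from 400 to 500 kb. Of the 9 other curated genes within 2 Mb, Klhl1 had 12 and 3.20 kb and the other 8 had none in either list.

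H3K4me3 at Dach1 was longer and denser in the K27M library. In both lists its intervals lay within the H3K27me3 interval over the promoter. The 2 wild-type intervals, of 376 and 294 bp, covered 0.670 kb and the 3 K27M intervals covered 2.54 kb, a 3.79-fold difference. The interval inside the gene start went from 376 bp with a mean of 16.9 to 1791 bp (chr14:98167805-98169596) with a mean of 78.4, and its highest density from 21 to 150. The interval over the printed promoter stayed small, with means of 23.6 and 23.0. No H3K27ac interval lay in the window in either list.

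**Figure D5:**
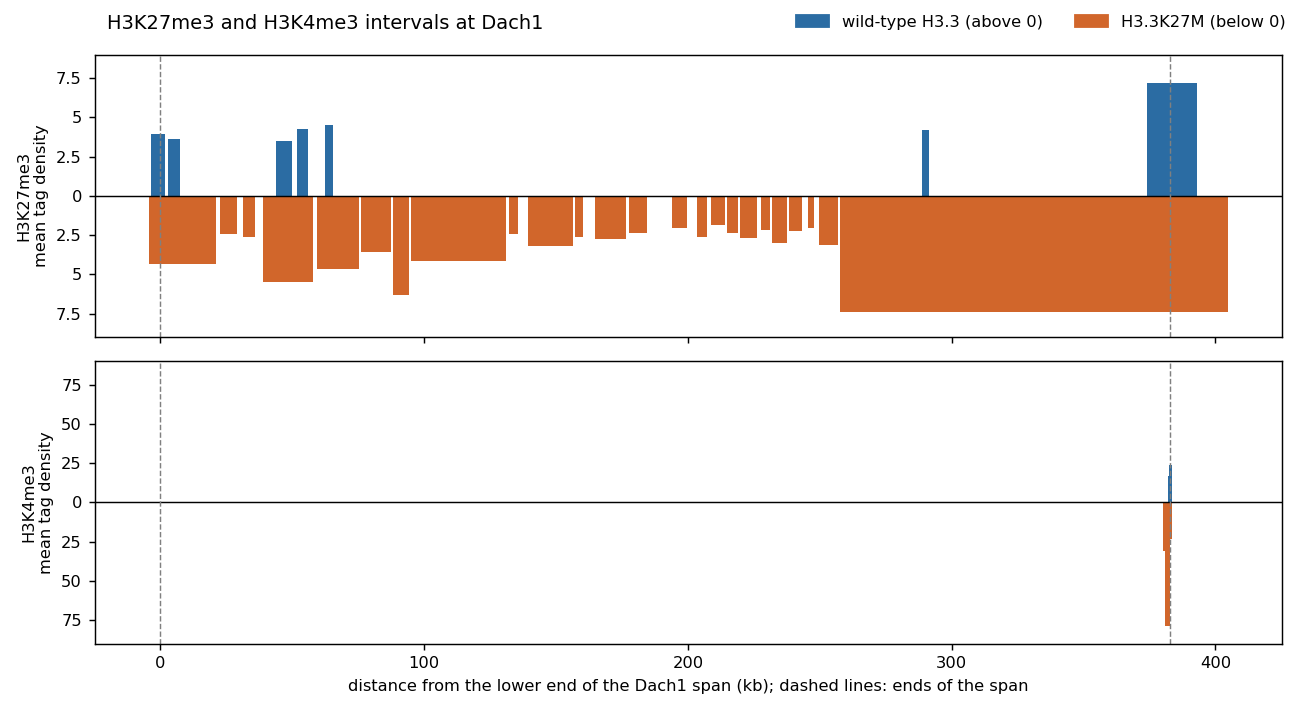
H3K27me3 (top) and H3K4me3 (bottom) intervals at Dach1 by distance in kb from the lower end of the gene span; bar height is the mean tag density, wild-type H3.3 above 0 and H3.3K27M below, dashed lines are the ends of the span and the narrowest intervals are drawn at a fixed minimum width. The 7 wild-type H3K27me3 intervals cover 33.3 kb of the window and the 24 K27M intervals 337 kb, the widest of them over the promoter at the right.

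Genes linked to the 8 factors were read from lists of known partners and targets, whose choice followed earlier results of these data. Of 14 nuclear factor I-linked glial genes, 11 had wild-type H3K27ac (51.5% of all genes). Of these 11, 8 were at least 2-fold shorter in the K27M list (50.7% of all genes) and 0 longer (0.422%). The median length over the 11 was 42.2% of wild type against 49.4% for all genes. Gfap, the intermediate filament of astrocytes, had 0.407 and 0 kb, S100b 0.617 and 0 kb, and Aldh1l1 0.232 and 0 kb. None of these genes had an H3K4me3 interval in either list. H3K27me3 covered 11.9 and 11.3 kb at Gfap and 46.4 and 3.80 kb at Aldh1l1, and none of S100b. The highest H3K27ac ratio was at Fabp7, a fatty acid binding protein of radial glia, with 3.52 and 2.48 kb. Nfic, the remaining nuclear factor I gene, had 20 intervals over 12.5 kb and 5 over 1.87 kb, or 15.0%.

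All 10 genes of Rest's corepressors and partners had H3K27ac (51.5% of all genes), with 6 at least 2-fold shorter (50.7% of all) and a median of 48.7% (49.4% over all), so the shortening was near that of all genes. The highest was the H3K9 methyltransferase gene Ehmt2 at 72.1%. Of 13 neuronal genes known as Rest targets, 6 had wild-type H3K27ac (51.5% of all genes). Of these 6, 5 were at least 2-fold shorter (50.7% of all genes), and the median over the 6 was 37.3%. The 6 ranged from Stmn3, a regulator of microtubules, with 0.779 and 0 kb, to the neurotrophin gene Bdnf at 86.7%. H3K27me3 was found at 5 of the 13 in the wild-type list (31.4% of all genes) and at 1, Vgf, in the K27M list (10.1%), which is near the share of all genes. By the 1 bp rule the 5 include Syp and Stmn3, where it covered only 0.0190 and 0.300 kb of the window.

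Of 30 other transcription factors of neural stem cells, 29 had wild-type H3K27ac (51.5% of all genes). Of these 29, 12 were at least 2-fold shorter, against 50.7% of all genes, and the median over the 29 was 53.4%. Sox3 had 1.06 and 0 kb, Hes5 1.51 and 0 kb and Prdm16 1.20 and 0 kb, and the highest ratio was at Emx2 with 1.27 and 1.42 kb. Prdm16 had no interval of any mark in the K27M list, with 1.77 and 0 kb of H3K4me3 and 278 and 0 kb of H3K27me3. H3K4me3 covered 3.77 and 3.79 kb at Sox3 and 3.29 and 3.60 kb at Hes5. Of 10 pluripotency genes linked to Klf4, 3 had H3K27ac in the wild-type list (51.5% of all genes) and 4 in the K27M list (43.7%). Of these 3, 1 was at least 2-fold shorter (50.7% of all genes). Esrrb, an orphan nuclear receptor gene, was at 44.9% and Myc at 81.7%, and Pou5f1 and Nanog had 0 kb in both lists.

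The genes most like Nfia, by the Euclidean distance over the 6 libraries in log2(covered bases + 100), were Tcf4 at 1.15, Gm46091 at 1.49 and Sox2ot at 1.91. Tcf4, an E-protein gene of neural progenitors that is also in the list of 30, had 41.2 and 12.4 kb of H3K27ac and 25.6 and 21.1 kb of H3K4me3. Sox2ot, the long noncoding gene that spans Sox2, had 19.4 and 16.9 kb of H3K27ac. All 3 had 0 kb of H3K27me3 in both lists, as Nfia did.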

How the data were processed

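Chromatin from H3.3K27M and wild-type mouse neuronal stem cells was immunoprecipitated for H3K4me3, H3K27ac and H3K27me3, with 1 library per genotype and mark; groups came from the sample labels. The authors deposited 1 interval list per library, with no pooling. The build was mm10 and the tools named are BWA and SICER, per the submitters' processing notes; the sources used here do not give their roles, versions or thresholds, nor any use of the 2 inputs. The deposited values are a signal or coverage, namely the mean and the highest tag density of an interval in bins of about 32 nt, per the file headers. Library totals are unknown, so each share's exact binomial interval covers counting error only.

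Gene spans and promoters are from RefSeq GRCm38.p6, and 24346 protein-coding and long noncoding genes with curated transcripts on the chromosomes served as background. Covered length is the number of bases of a window under intervals, and lengths are end minus start. Density of a gene is the length-weighted mean over its intervals, compared as log2((K27M + 1)/(wild type + 1)). An interval counts as overlapped when it shares 1 bp with the other list. The promoter and CpG island counts of an interval are those of the deposited table. Members and lists were chosen with earlier results of these data known. All 8 members are named; of each related list the genes with the lowest (ties included) and highest ratio of H3K27ac length are named, Nfic, Pou5f1, Nanog and Vgf besides after their values were seen, and the 3 genes nearest to the one with the largest loss. 1 gene that this rule names is not reported here. Scripts in Python 3.11.15 with pandas 2.3.3, numpy 2.4.6 and scipy 1.17.1 were tested on simulated intervals. Alternatives were the flank, a density floor, the overlap rule, the pseudocount, the density measure, the scaling and the members included.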

Additional observations from a re-analysis of the deposited data

How the results depend on the processing

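At the 8 genes H3K27ac length stayed between 33.8% and 45.8% of wild type and H3K4me3 length between 90.7% and 97.9% over all alternatives run, and the count of genes with at least 2-fold shorter H3K27ac was 4, and that of genes with H3K27me3 was 1, under each; with the common density floor described next, the share of all genes at least 2-fold shorter was 37.3% of 10968 genes, and 72.0% of 575 genes of at least 5 wild-type intervals. Of 59 alternative values of the main results 50 kept their direction and size, as did 30 of 31 for single genes. With a common density floor, chosen as the higher 5th percentile of the lists, the K27M interval number was 105% of wild type instead of 49.3%, the overlapped share of wild-type intervals was 56.7% instead of 28.6%, the H3K27ac density ratio (log2, 0.07 as reported) was -0.09, and the length ratio of Dach1 H3K4me3 was 8.64 instead of 3.79. The H3K27ac density ratio was -0.56 with the highest density, -0.50 with equal 5th percentiles, -0.10 over regions shared by both lists (chosen after seeing the data) and 1.16 with equal sums, and the H3K4me3 density ratio (0.34) was -0.06 with equal sums. Requiring K27M intervals to cover most of a wild-type interval, at least 0.5 of it, left 19.3% overlapped. The shares of 56.7% and 19.3% were not computed over all wild-type intervals, so they have no background. The Dach1 H3K27me3 length ratio ran from 7.78 with a 10 kb flank to 10.7 with none (alternatives chosen after seeing the data). The cause of these changes was not tested. With no flank Klf4 had no wild-type H3K27ac interval and so no ratio. No paired analysis was possible because each genotype and mark has 1 library, and for the same reason no replicate could be left out.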
